A study of Mus musculus with 13 samples.

Results

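Obox1, Obox2, Obox3, Obox5 and Obox6 encode homeobox proteins, and Oog1, Oog2, Oog3 and Oog4 encode oogenesins, of mouse oocytes. These 9 genes were taken by symbol from a table of 23235 gene symbols that gives 1 FPKM value (fragment counts scaled for transcript length and library depth) for each of 4 columns. The columns are the MTR4-null nucleus, the WT nucleus, the MTR4-null cytoplasm and the WT cytoplasm. All 9 symbols were found, and 8 of them passed a minimum of 1 in at least 2 columns. The exception was Obox6.

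Each library was made by Smart-seq2 from polyadenylated RNA of 10 nuclei or 10 cytoplasms, which had been parted by micromanipulation. The labels list MTR4-null nuclei and MTR4-null cytoplasms at day 21 with 2 libraries each, WT nuclei with 3 libraries at day 21 and 2 at day 14, and WT cytoplasms with 2 at each day. The header gives no day for WT, so any difference between MTR4-null and WT cannot be told apart from one of age. The table has no column for a single library, and no difference below has a replicate check, a standard error or a p-value. The sources used here do not say how the null allele was made. MTR4 is a helicase that threads RNA into the nuclear exosome, which degrades RNA from its free end. Its gene, Skiv2l2, was at 3.54 in the null nucleus against 13.3 in the WT nucleus, with 4.36 in the null cytoplasm against 187 in the WT cytoplasm.

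The Obox genes lie in a tandem cluster and carry a homeodomain of the paired-like kind. The mRNAs of some of them are made in the growing oocyte and stored for the early embryo, where OBOX proteins are known in the mouse for their part in switching on the zygotic genome. Oogenesins are leucine-rich repeat proteins of the large PRAME family, expressed in female germ cells, and OOG1 is known to bind a RAS-pathway exchange factor. Both families arose by repeated duplication, so their members resemble each other in DNA and RNA, and short reads can be hard to assign to one copy.

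The resemblance is plain at the promoters. Whether promoter sequence bears on the differences between MTR4-null and WT given below was not tested. The RefSeq table (GRCm38.p6, not the build mm9 of the expression files) held windows of 250 bases before to 50 bases after the annotated start for 8 of the 9 genes. In the 3 Obox windows below, capitals mark the longest stretch held by all of Obox1, Obox3 and Obox5, which has 42 bases. In the 2 Oog windows they mark the longest stretch held by all of Oog1 to Oog4, which has 11 bases. Oog1 and Oog3 were picked as the oogenesins with the smallest and the largest differences between null and WT.
Obox1, chr7:15547007-15547306, plus strand: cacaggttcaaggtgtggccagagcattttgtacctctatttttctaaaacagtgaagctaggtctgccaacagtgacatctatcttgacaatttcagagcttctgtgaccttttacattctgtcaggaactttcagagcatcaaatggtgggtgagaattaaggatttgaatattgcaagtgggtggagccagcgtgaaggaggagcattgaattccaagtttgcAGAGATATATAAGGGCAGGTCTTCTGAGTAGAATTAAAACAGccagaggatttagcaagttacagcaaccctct
Obox3, chr7:15639728-15640027, minus strand: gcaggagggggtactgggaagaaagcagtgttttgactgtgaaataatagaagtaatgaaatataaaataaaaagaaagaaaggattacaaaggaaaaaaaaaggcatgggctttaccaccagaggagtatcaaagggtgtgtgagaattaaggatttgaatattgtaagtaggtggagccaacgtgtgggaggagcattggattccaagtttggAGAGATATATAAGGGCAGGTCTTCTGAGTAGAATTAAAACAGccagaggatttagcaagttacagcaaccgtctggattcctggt
Obox5, chr7:15750120-15750419, plus strand: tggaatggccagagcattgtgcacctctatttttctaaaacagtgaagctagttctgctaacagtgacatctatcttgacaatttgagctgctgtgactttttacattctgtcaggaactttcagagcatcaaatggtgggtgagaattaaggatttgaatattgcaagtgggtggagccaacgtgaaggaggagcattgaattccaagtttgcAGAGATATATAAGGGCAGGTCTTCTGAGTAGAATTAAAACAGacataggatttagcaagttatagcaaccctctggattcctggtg
Oog1, chr12:87602415-87602714, plus strand: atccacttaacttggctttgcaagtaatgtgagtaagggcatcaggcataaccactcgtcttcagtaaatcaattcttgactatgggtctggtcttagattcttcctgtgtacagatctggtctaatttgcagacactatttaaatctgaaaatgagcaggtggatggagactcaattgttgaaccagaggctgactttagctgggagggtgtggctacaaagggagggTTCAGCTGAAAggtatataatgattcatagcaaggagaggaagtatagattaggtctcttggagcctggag
Oog3, chr4:144162602-144162901, minus strand: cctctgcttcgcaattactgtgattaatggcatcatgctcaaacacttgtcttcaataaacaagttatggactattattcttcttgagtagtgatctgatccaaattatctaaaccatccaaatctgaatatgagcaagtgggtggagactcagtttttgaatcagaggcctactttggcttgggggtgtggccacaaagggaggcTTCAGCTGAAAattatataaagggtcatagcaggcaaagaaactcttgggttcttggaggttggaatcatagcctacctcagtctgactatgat

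The 42-base stretch began 24 bases before the start of Obox1, 35 before that of Obox3 and 36 before that of Obox5. It occurred, on either strand, in 4 of 32851 windows of this length, those of Obox1, Obox3, Obox5 and Obox7. Aligned end to end, the Obox1 and Obox5 windows matched at 275 of 288 paired bases (95.5%), and those of Obox1 and Obox3 at 211 of 284 (74.3%). Obox2 has its annotated start farther upstream, and its window shared an unbroken 203 bases with that of Obox1. Among the oogenesins, identity over paired bases ran from 76.1% (Oog1 and Oog2) to 84.4% (Oog1 and Oog4). Between an Obox and an Oog window it ran from 51.0% to 61.5%. The 11-base oogenesin stretch lay 21 bases before the start of Oog1 and 43 to 45 bases before those of the other oogenesins, and occurred in 17 of the 32851 windows.

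Letters recognised by oocyte transcription factors were searched on both strands. The NOBOX element TAATTG was in the windows of Oog3 and Oog4, against 8.0% of all windows, and its variant TAATTA was in 0 of 8, against 5.29%. TAATCC, read by homeodomains of the OTX and CRX kind, was in that of Obox3 alone among the 8, against 7.06% of all windows. TATAAA was in those of Obox3, Oog2 and Oog3, against 13.6%. The Obox3 match lies upstream of the 42-base stretch in capitals. That stretch, held by Obox1, Obox3 and Obox5, contains TATATAAG, which this search does not count. The E-box CANNTG was in 7 of 8, all but Obox3, against 72.3% of all windows. The 11-base oogenesin stretch holds an E-box match, so that each oogenesin had 1 there. These matches are descriptions of letters in 1 window per gene.

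Shared sequence extends into the transcripts. In GENCODE M21, 57.4% of the distinct 50-base windows of Obox1 transcripts also occurred in transcripts of another gene, and 56.4% in those of Obox2. Of the Obox2 windows, 62.7% occurred in Obox1. With 100-base windows the shares were 42.3% and 47.2%. Obox5 was more distinct, with 18.1% of 50-base windows found in another gene, led by Obox7 with 13.0%. For Obox3 the share was 20.2%, mostly with Obox3 pseudogenes, and for Obox6 it was 5.02%. Oog1 had the highest share, 89.0%, with Gm2042 holding 85.8% of its windows and Gm10436 58.6%. For Oog2 the share was 33.4%, led by Gm13084 with 30.1%, and for Oog3 it was 19.7%, led by Gm4350 with 18.9%. Oog4 shared 0.707% of its windows. The values of Obox1, Obox2 and Oog1 therefore rest most on how reads were divided among copies, which the sources used here do not give.

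The levels of the 9 genes spanned the table from its top to near 0. Obox5, a homeobox gene of the cluster, had 523 FPKM in the null nucleus against 899 in the WT nucleus, with 2899 in the null cytoplasm against 12073 in the WT cytoplasm. Oog3 had 379 in the null nucleus against 881 in the WT nucleus, with 1496 in the null cytoplasm against 13363 in the WT cytoplasm. For both genes the null column was the lower one in each compartment.

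Obox1 had 315 in the null nucleus against 483 in the WT nucleus, with 1211 in the null cytoplasm against 8959 in the WT cytoplasm. Obox2, its close copy, had 493 in the null nucleus against 430.3 in the WT nucleus, with 2057 in the null cytoplasm against 6504 in the WT cytoplasm. Obox1 was the higher of the pair in both WT columns, and Obox2 was the higher in both null columns. The Obox1 to Obox2 ratio, which no column scale can alter, was 0.639 in the null nucleus against 1.12 in the WT nucleus, with 0.589 in the null cytoplasm against 1.38 in the WT cytoplasm. This ratio does depend on how reads were divided between the copies, so a switch in their order cannot be read from it. Both genes were lower in the null cytoplasm as deposited.

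Oog4 had 232 in the null nucleus against 243 in the WT nucleus, with 839 in the null cytoplasm against 5161 in the WT cytoplasm. Oog2 had 81.7 in the null nucleus against 127 in the WT nucleus, with 433 in the null cytoplasm against 1913 in the WT cytoplasm. These oogenesins followed Oog3 in direction at lower levels, but the 2 nuclear values of Oog4 were nearly equal as deposited. Oog1 had 49.7 in the null nucleus against 25.8 in the WT nucleus, with 153 in the null cytoplasm against 376 in the WT cytoplasm. It was the oogenesin with the lowest level in each column. The Oog3 to Oog1 ratio was 7.63 in the null nucleus against 34.2 in the WT nucleus, with 9.79 in the null cytoplasm against 35.6 in the WT cytoplasm. It depends on how reads of Oog1 and its copies were divided.

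Obox3 and Obox6 were near the floor of the table. Obox3, a homeobox gene of the same cluster, had 2.03 in the null nucleus against 2.21 in the WT nucleus, with 4.84 in the null cytoplasm against 9.86 in the WT cytoplasm. Obox6, known in the mouse as an aid to reprogramming of somatic cells, was listed at 0 in both null columns, with 0.624 in the WT nucleus and 2.45 in WT cytoplasm. With no counts in the table, no fold is given for Obox6.

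**Figure D1:**
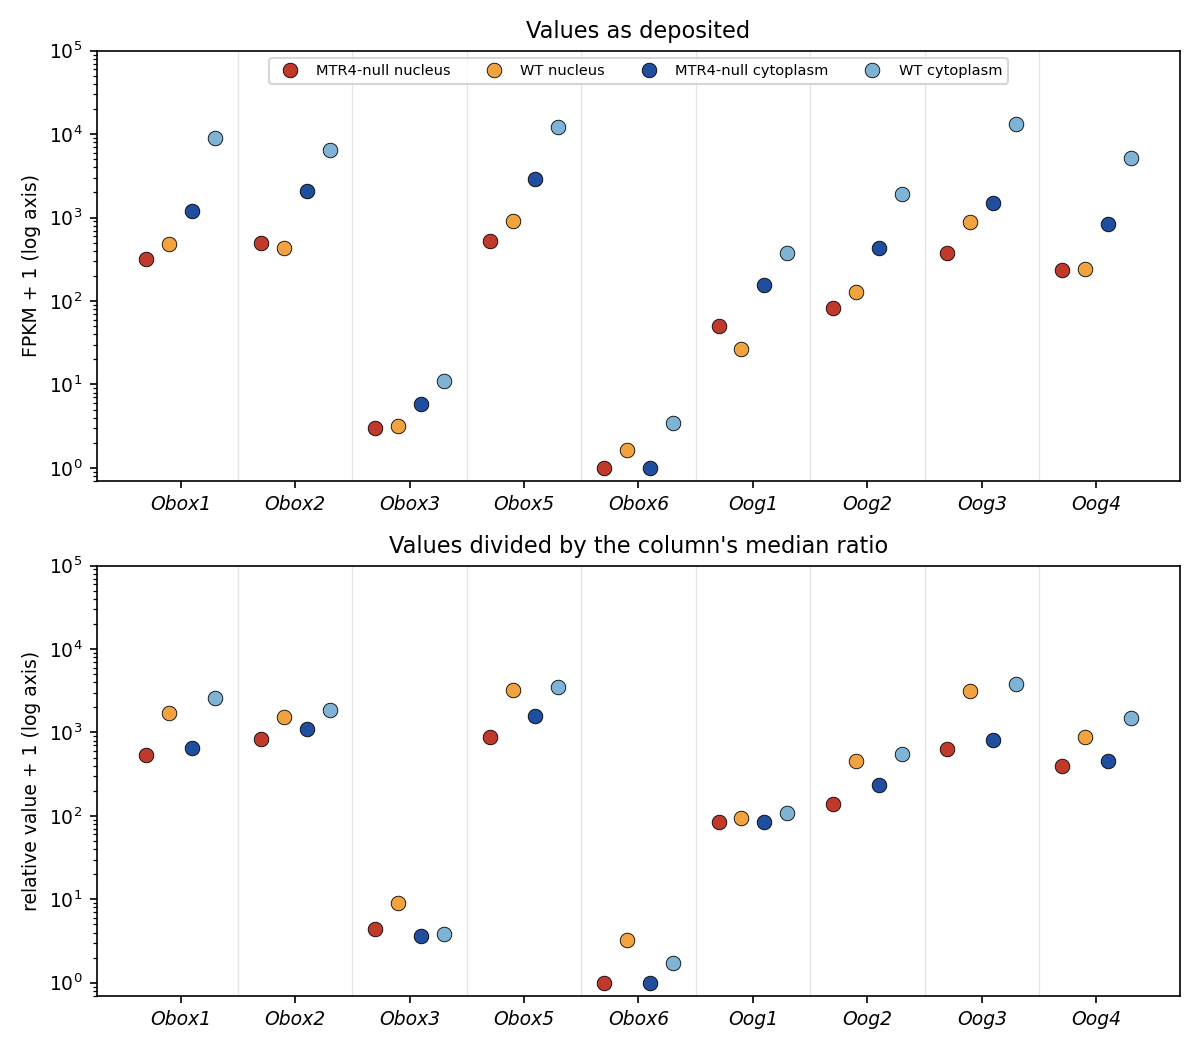
Value of each gene in the 4 columns, as deposited (upper panel, FPKM + 1) and after division by the median ratio of the column (lower panel, relative value + 1), both on log axes; each point is 1 column, and Obox6 lies at 1 in both null columns because it is listed at 0 there. In the lower panel the MTR4-null point lies below the WT point of the same compartment for all 9 genes.

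Ranks within a column do not depend on its scale. Of 23235 symbols ordered from the highest value, Obox5 stood at 389 in the null nucleus against 79 in the WT nucleus, with 152 in the null cytoplasm against 60 in the WT cytoplasm. Oog3 stood at 522 in the null nucleus against 85 in the WT nucleus, with 362 in the null cytoplasm against 53 in the WT cytoplasm. Obox1 stood at 614 in the null nucleus against 177 in the WT nucleus, with 461 in the null cytoplasm against 96 in the WT cytoplasm. These 3 genes thus held a lower place in each null column than in the WT column of the same compartment. Obox2 stood at 412 in the null nucleus against 213 in the WT nucleus, with 248 in the null cytoplasm against 163 in the WT cytoplasm. Oog1 held nearly the same place within each compartment, at 3118 in the null nucleus against 3141 in the WT nucleus, with 3118 in the null cytoplasm against 2800 in the WT cytoplasm. Among the 9 genes the order was Obox5, Obox2, Oog3, Obox1, Oog4, Oog2, Oog1, Obox3 and Obox6 in both null columns. In the WT nucleus it began Obox5, Oog3, Obox1, Obox2, and in the WT cytoplasm Oog3, Obox5, Obox1, Obox2, with the same 5 genes after them. Without replicates, no neighbours in these orders can be said to differ.

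Together the 9 genes made up 0.149% of the column total in the null nucleus and 0.520% in the WT nucleus, with 0.302% in the null cytoplasm against 0.729% in the WT cytoplasm. The 5 Obox genes held 0.0954% in the null nucleus against 0.305% in the WT nucleus, with 0.205% in the null cytoplasm against 0.415% in the WT cytoplasm. The 4 oogenesins held 0.0532% in the null nucleus against 0.215% in the WT nucleus, with 0.0971% in the null cytoplasm against 0.314% in the WT cytoplasm. The share of each family was thus lower in the null column of either compartment. RNA pooled from oocytes cannot tell less RNA in each oocyte from fewer oocytes that carry it.

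Because the column totals differ from 594034 (WT nucleus) to 6637350 (WT cytoplasm), differences between columns were taken after each column was scaled by the median, over genes, of its ratio to the geometric mean of the 4 columns. With 1 added to the scaled values, they are given as relative log2 differences, so that 0 is near the median gene and a gene is called higher or lower when it differs at least 2-fold. In the null against the WT nucleus, 6 of the 8 genes that passed the minimum were lower and 0 were higher, against 16.2% lower and 25.8% higher among 14240 genes. Oog3 had the largest difference of the 8, at -2.31. Obox5 was at -1.87, Oog2 at -1.72, Obox1 at -1.71, Oog4 at -1.15 and Obox3 at -1.02. Obox2 (-0.90) and Oog1 (-0.15) differed by less than 2-fold. The median of the 8 was -1.43, against 0.055 over all genes. None of the 8 passed the minimum through one genotype only, since each had at least 1 in all 4 columns.

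Whether a gene reached 2-fold in the nucleus depended on the column scale for most of these genes, and the direction did so for Oog1 and Obox2. As deposited, 1 of the 8 was at least 2-fold lower in the null nucleus, Oog3 at -1.21, and 0 were higher, against 3.69% lower and 46.3% higher among all genes. Oog1 (0.92) and Obox2 (0.20) were then above 0 and the other 6 below it. The median gene was at 0.91 on that scale, so that each of the 8 except Oog1 still lay below the median gene.

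In the null against the WT cytoplasm, 5 of the 8 were lower and 0 were higher, against 18.6% lower and 24.2% higher among all genes. Oog3 was at -2.25, Obox1 at -1.98, Oog4 at -1.71, Oog2 at -1.23 and Obox5 at -1.15. Obox2 (-0.75), Oog1 (-0.39) and Obox3 (-0.087) differed by less than 2-fold. The median was -1.19, against 0.055 over all genes. With quantile normalization or division by column totals the count was 3, as Obox5 and Oog2 came to lie within 2-fold. As deposited, 7 of the 8 were lower and 0 higher, against 43.7% lower and 14.9% higher among all genes, and the exception was Obox3.

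**Figure D2:**
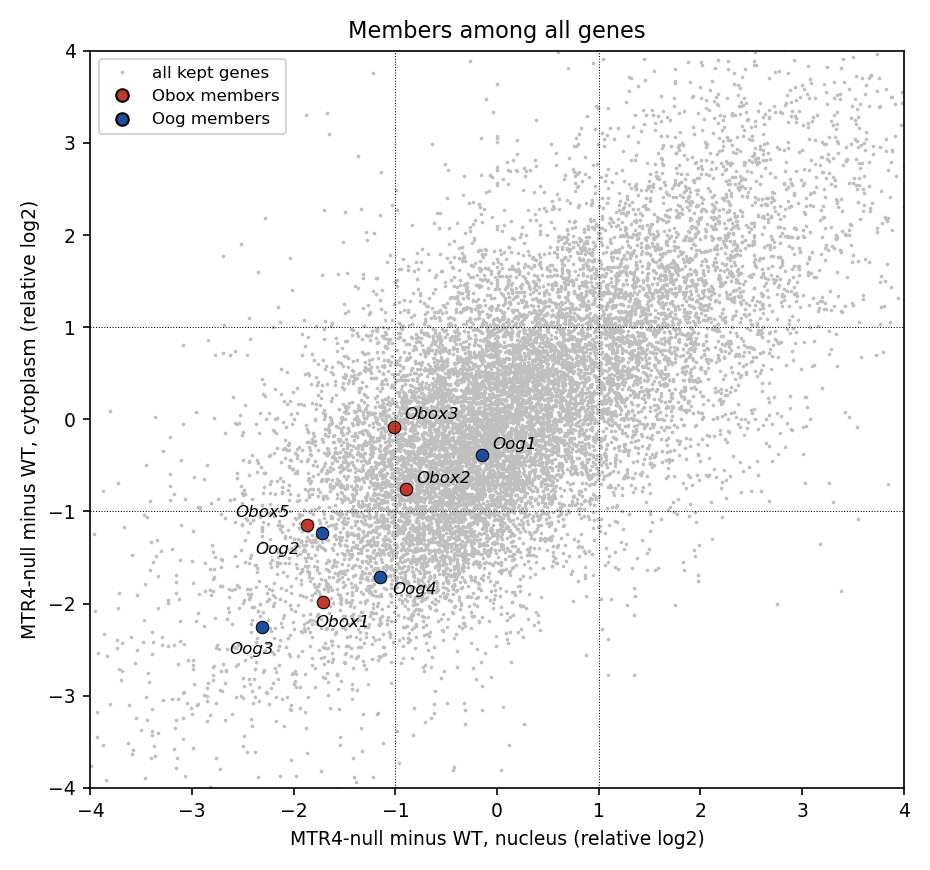
Relative log2 difference between MTR4-null and WT in the nucleus (horizontal) and in the cytoplasm (vertical), with 1 grey point per gene that passed the minimum, the 4 Obox genes in red and the 4 oogenesins in blue; dotted lines mark 2-fold and the axes end at 4. Oog3, Obox1, Obox5, Oog2 and Oog4 lie beyond 2-fold lower on both axes, while Oog1 lies near the centre.

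Most of these genes are among the most abundant in WT, and abundant genes as a whole had lower relative values in both null columns. A comparison with abundant genes, set by a lowest level, was chosen after the values had been seen. Oog1 had the lowest level of the 7 abundant genes, and 2527 genes reached at least its relative value in both WT columns. Of these, 640 (25.3%) were at least 2-fold lower in the null nucleus and 58 (2.30%) higher, with a median of -0.54. In the null cytoplasm 891 (35.3%) were lower and 64 (2.53%) higher, with a median of -0.70. Of the 7 abundant genes, 5 were lower in each compartment. Ordered from the lowest difference among the 2527 genes, Oog3 stood at 61 in the nucleus and 103 in the cytoplasm, Obox1 at 165 and 161, and Obox5 at 118 and 733. Oog2 stood at 163 and 650, and Oog4 at 503 and 278. Obox2 stood at 748 and 1194, close to the middle in the cytoplasm. Oog1 stood at 1880 and 1672, and its differences of -0.15 and -0.39 lay above the medians of the set. A stricter set held 352 genes, with relative WT cytoplasm values from 1002.63, among them Obox1, Obox2, Obox5, Oog3 and Oog4. Of the 352, 25.3% were lower in the nucleus and 39.2% in the cytoplasm, with medians of -0.54 and -0.78. Oog3 stood at 7 in the nucleus and 18 in the cytoplasm, Obox1 at 21 and 26, and Oog4 at 71 and 43. Obox5 stood at 13 and 118, and Obox2 at 106 and 184. Part of such a trend is built in, because the WT values that set the level are also subtracted, and how much was not tested.

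**Figure D3:**
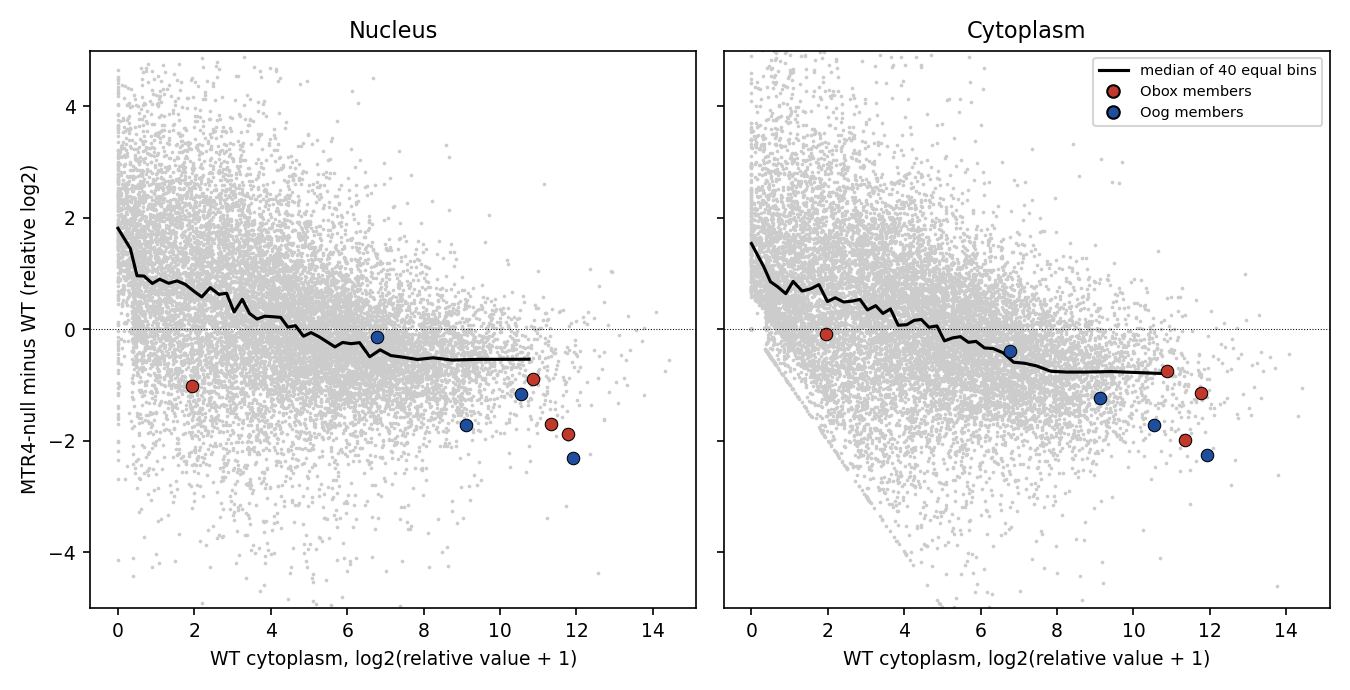
Relative log2 difference between MTR4-null and WT in the nucleus (left) and cytoplasm (right) against the WT cytoplasm level, log2(relative value + 1), with 1 grey point per gene and the median of 40 equally filled bins as a line. In the bins of high WT level the line lies below 0, and Oog3, Obox1, Oog4, Oog2 and Obox5 lie below the line in both panels.

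As deposited, each of the 8 genes had a lower value in the nucleus than in the cytoplasm of the same genotype, but so did most genes, with the median gene at -3.27 in WT and -1.48 in null on the log2 scale. Oog3, for example, had 881 in the WT nucleus and 13363 in WT cytoplasm, and Obox5 had 523 in the null nucleus and 2899 in the null cytoplasm. Relative to the median gene, 7 of the 8 genes differed by less than 2-fold between WT nucleus and WT cytoplasm. Obox3 was higher in the WT nucleus (1.22), which made 1 gene higher and 0 lower, against 9.73% higher and 7.46% lower among all genes. This rests on values of 2.21 in the WT nucleus and 9.86 in WT cytoplasm. As deposited its difference was -1.76, the opposite direction. The others ran from -0.77 for Oog4 to -0.11 for Obox5. In null oocytes 0 of the 8 were called in either direction between nucleus and cytoplasm, against 12.4% higher and 8.83% lower, with values from -0.83 for Obox5 to 0.29 for Obox3.

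The nucleus minus cytoplasm difference was then compared between null and WT. Again 0 of the 8 were called, against 16.9% higher and 15.3% lower among all genes. The values ran from -0.93 for Obox3 and -0.72 for Obox5 to 0.56 for Oog4, and that of Oog3 was -0.057. Obox5 was lower by more in the nucleus than in the cytoplasm, and Oog4 and Obox1 (0.27) by more in the cytoplasm, within 2-fold in each case. The size of this difference depends on all 4 column scales, and as deposited 7 of the 8 were called higher in null.

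The rest of both families was examined by a rule on symbols and RefSeq synonyms. Besides the 9 genes the table held 2 more Obox-like rows and 30 more PRAME-like rows. Obox7, listed as Gm4745, had 107 in the null nucleus against 96.1 in the WT nucleus, with 374 in the null cytoplasm against 1850 in the WT cytoplasm. Its relative differences between null and WT were -0.93 in the nucleus and -1.39 in the cytoplasm, within the range of Obox1, Obox2 and Obox5 in each compartment. Crxos1, the homeobox gene beside the cluster, was listed at 0 in both null columns, with 0.944 in the WT nucleus and 7.62 in WT cytoplasm.

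Of the 30 PRAME-like rows, 16 passed the minimum. In the nucleus 9 of the 16 were lower in null and 4 were higher, with a median of -1.38. In the cytoplasm 5 were lower and 3 higher, with a median of -0.055. Over all genes, 16.2% were lower and 25.8% higher in the nucleus, with 18.6% and 24.2% in the cytoplasm. Pramef17 reached 1 in the null columns alone and was called higher in both compartments. Gm13088 reached 1 in the WT columns alone and was called lower in both. The calls of Pramef17 and Gm13088 therefore follow in part from the minimum. The 7 rows with the highest WT cytoplasm values were all at least 2-fold lower in the null nucleus, and 4 of the 7 were so in the null cytoplasm as well. The other 3 differed by less than 2-fold there, with C87499 at -0.85, Gm13084 at -0.12 and Gm10436 at 0.014. The cut at 7 rows was not planned, and the next row, Pramef12, was at -0.79 in the nucleus and 1.52 in the cytoplasm. Among the 2527 abundant genes, 25.3% were lower in the null nucleus and 35.3% in the null cytoplasm. The WT cytoplasm values that set the order are also subtracted in the cytoplasm, so part of this is built in. C87977 had 388 in the null nucleus against 508 in the WT nucleus, with 1525 in the null cytoplasm against 7640 in the WT cytoplasm, with relative differences of -1.48 and -1.42. Gm13023 was at -1.60 in the nucleus and -1.27 in the cytoplasm, Gm13125 at -1.68 and -1.96, and C87414 at -2.31 and -1.21.

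Gm10436, which shares sequence with Oog1, had 75.8 in the null nucleus against 247 in the WT nucleus, with 1248 in the null cytoplasm against 2316 in the WT cytoplasm. Its relative differences were -2.79 in the nucleus and 0.014 in the cytoplasm. Some rows of lower level ran the opposite way. Gm13103 was higher in null in both, with 62.3 in the null nucleus against 5.16 in the WT nucleus, with 393 in the null cytoplasm against 118 in the WT cytoplasm (2.44 and 2.61). Pramef12 had 131 in the null nucleus against 106 in the WT nucleus, with 721 in the null cytoplasm against 468 in the WT cytoplasm (-0.79 and 1.52). Among low rows, Pramef17 had 3.47 in the null nucleus against 0.0187 in the WT nucleus, and B020004J07Rik had 8.79 in the null nucleus against 0.132 in the WT nucleus. The other 7 rows that passed the minimum were C87499, Gm13084, Gm13083, Gm13088, D5Ertd577e, Pramef8 and Gm3139. Their nuclear differences ran from -1.68 (D5Ertd577e) to 1.80 (Gm3139), and their cytoplasmic ones from -2.93 (Gm13088) to 0.73 (Pramef8). Gm13084, which shares sequence with Oog2, was at -1.28 in the nucleus and -0.12 in the cytoplasm. Pramef6, Gm12794, Gm13078, Pramel5 and Pramel7 reached 1 in a single column each and did not pass. PRAME-like genes of 1 cluster can share reads, so values of single rows are uncertain.

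**Figure D4:**
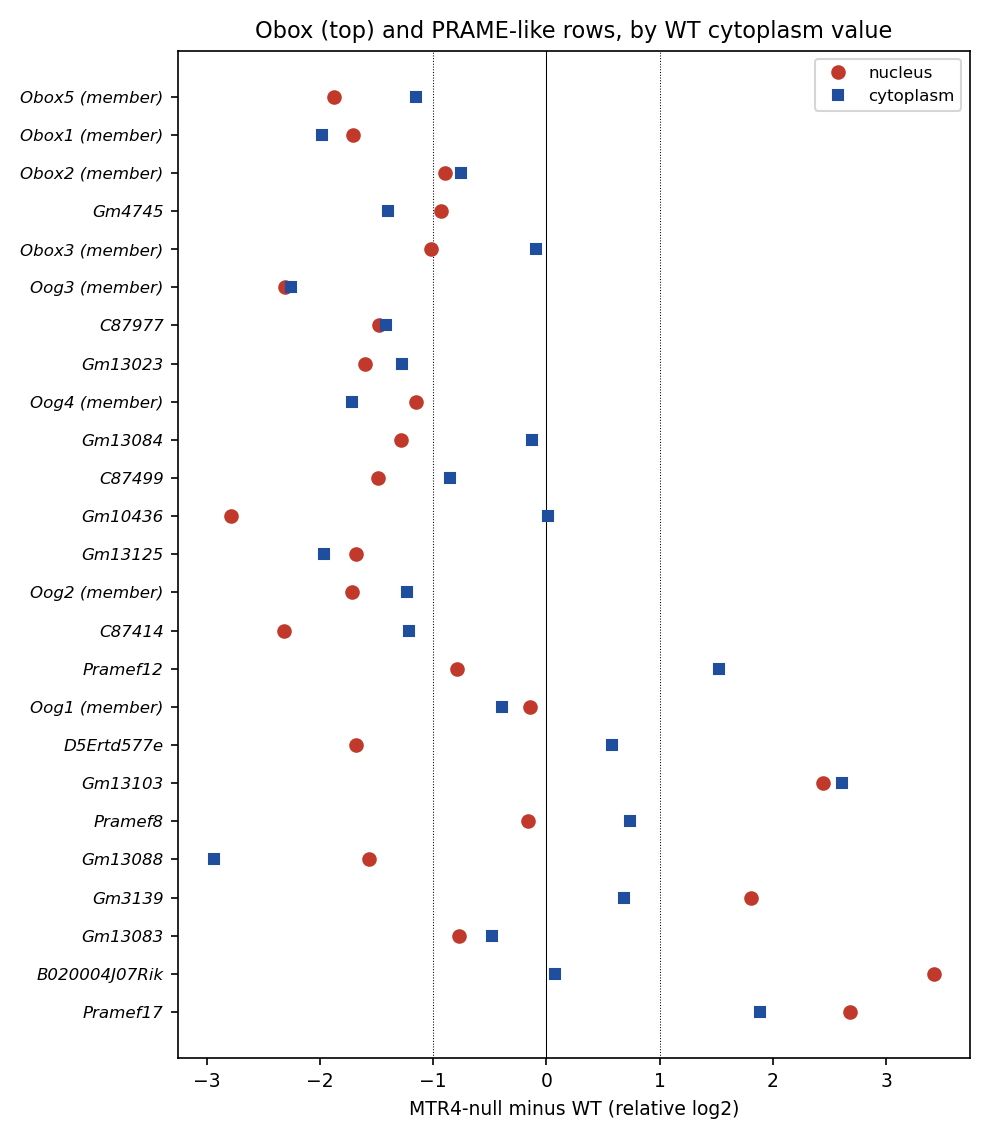
Relative log2 difference between MTR4-null and WT in the nucleus (red circles) and cytoplasm (blue squares) for the Obox rows (top) and the PRAME-like rows including the oogenesins (below) that passed the minimum, each group ordered by WT cytoplasm value; dotted lines mark 2-fold. The rows at the head of each group lie mostly left of 0, and Gm13103, Gm3139, Pramef17 and B020004J07Rik lie right of 0 in the nucleus.

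Other genes of the oocyte programme were set beside these families by lists. Beside their counts stand the shares over all genes, 16.2% lower and 25.8% higher in the null nucleus, with 18.6% and 24.2% in the null cytoplasm. Of 43 homeobox and oocyte transcription factor genes in the table, 32 passed the minimum. In the null nucleus 6 were higher and 5 lower (median 0.099), and in the null cytoplasm 7 were higher and 4 lower (median 0.36). Msx2, called higher in both, reached 1 in the null columns alone, so its calls follow in part from the minimum. Nobox, a homeobox regulator of oocyte genes, had 254 in the null nucleus against 216 in the WT nucleus, with 646 in the null cytoplasm against 6401 in the WT cytoplasm, with relative differences of -0.86 and -2.40. Sohlh1, which acts in early follicle growth, was higher in null in the nucleus (3.20) and the cytoplasm (2.68), and Sohlh2 was lower in both (-1.79 and -1.47). The nuclear differences rest on low values. Sohlh1 had 12.9 in the null nucleus against 0.406 in the WT nucleus, and Sohlh2 had 0.790 against 1.97. The largest cytoplasmic differences of the list were those of Nanog (7.20) and Adnp (3.64), both higher in null. Nanog had 1471 in the null cytoplasm against 15.3 in the WT cytoplasm, and Adnp had 37.9 against a low 2.51. In the nucleus Nanog was at 0.77 and Adnp at 0.0004.

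For the next lists the same shares over all genes apply, 16.2% lower and 25.8% higher in the nucleus, with 18.6% and 24.2% in the cytoplasm. Among the 2527 abundant genes, 25.3% were lower in the nucleus and 35.3% in the cytoplasm. All 20 genes of a list built around NOBOX and its reported targets passed the minimum. In the nucleus 6 were lower in null and 1 higher (median -0.62), and in the cytoplasm 5 were lower and 1 higher (median -0.66). Rfpl4, an oocyte RING finger gene, had 649 in the null nucleus against 1431 in the WT nucleus, with 3969 in the null cytoplasm against 18285 in the WT cytoplasm (-2.23 and -1.30). H1foo, the oocyte linker histone, was at -0.75 in the nucleus and -1.56 in the cytoplasm. Of 24 abundant maternal mRNAs, 5 were lower and 3 higher in the null nucleus (median -0.51), and 7 were lower and 0 higher in the null cytoplasm (median -0.71). Of 31 genes of zygotic genome activation, the process in which OBOX proteins act, 20 passed. In the null nucleus 5 were higher and 2 lower (median 0.092), and in the null cytoplasm 5 were higher and 3 lower (median 0.40).

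For each of the 8 genes the kept genes of like level with the nearest profile over the 4 columns were found, by the distance between relative log2 values centred on their mean. Nearest to Obox1 were Ccdc69 (distance 0.039), Fbxw28 (0.23) and 9230115E21Rik (0.25). Nearest to Obox5 were Slbp (0.16), which encodes the histone stem-loop binding protein, Rfpl4 (0.28) and E330021D16Rik (0.33). Nearest to Obox2 were Rsl1d1 (0.080), Arf1 (0.090) and Orc5 (0.14), and nearest to Obox3 were Ap4m1 (0.19), Dapk1 (0.20) and Raph1 (0.23). For the oogenesins they were Cdca3 (0.018), Caprin2 (0.058) and Exosc1 (0.070) for Oog1, and Nlrp4e (0.069), Pdia4 (0.14) and Tusc3 (0.15) for Oog2. Oog3 had no profile as near, with Glrx (0.34), Ccdc69 (0.47) and Obox1 (0.48). For Oog4 they were Tdrd12 (0.11), Rdh11 (0.12) and Akr1a1 (0.18). The genes compared were those with a mean within 1 log2 unit of the gene's own, which were 3031 for Oog1 and 308 for Oog3.

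The labelled cell type was checked by markers. The 10 oocyte markers made up 1.47% of the total in the null nucleus and 1.77% in the WT nucleus, with 2.37% in the null cytoplasm against 2.69% in the WT cytoplasm, with none at 0 in any column. The 13 granulosa markers held 0.00153% in the null nucleus against 0.00296% in the WT nucleus, with 0.00891% in the null cytoplasm against 0.00673% in the WT cytoplasm. Of the 13, 3 were at 0 in the null nucleus, 2 in the WT nucleus and 0 in either cytoplasm column. The 7 theca and stroma markers and the 3 blood markers stayed below these shares in every column. Inha made up most of the granulosa sum in the WT cytoplasm, at 253 against 86.8 in the null cytoplasm. Of the 12 granulosa markers that passed the minimum, 4 were higher and 1 lower in the null cytoplasm, against 24.2% and 18.6% of all genes. Wt1 was at 2.81, Hsd3b1 at 2.13 and Kitl at 1.66, with Cyp19a1 at -1.33. In the null nucleus 1 was higher and 3 lower, against 25.8% and 16.2%. The part of other cells in the differences above was not tested.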

How the data were processed

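The authors deposited 1 table, named as FPKM, with 1 value per gene for each genotype and compartment. Cufflinks 2.2.1, TopHat2 2.1.1 and the build mm9 are credited to the submitters' processing notes, which give no roles or settings. The sources used here do not say how libraries were averaged or scaled, or how reads of gene copies were divided. Because totals differ between columns and printed digits fit unequal factors (in the WT nucleus 87.6% of values from 20 to below 90000 read as a mean of 2 values after division by 0.125, and 23.5% without it), the deposited values were treated as a score, and depth in reads is unknown.

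Columns were divided by their median ratio to the geometric mean column (divisors 0.594 null nucleus, 0.279 WT nucleus, 1.85 null cytoplasm, 3.47 WT cytoplasm), over genes with at least 1 in at least 2 columns and above 0 in all 4. A pseudocount of 1 was added, which understates differences of low genes. Calls need a 2-fold difference. A limma fit could not be made with 1 column per group. The scaling and calling steps were run on simulated columns with known factors and known changes. That run had few changed genes and no reads shared between copies. It therefore checks the steps, and not whether the calls made here would repeat. The 9 genes were all named. Of each list, genes were named from the 4 with the largest differences in a comparison, and of both families, rows that reached 1 in any column. Msx2 was named for the way it passed the minimum. The members, lists and comparisons were chosen with earlier results of these data known. Alignments used Biopython 1.88, with Python 3.11.15 and pandas 2.3.3 for the rest.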

Additional observations from a re-analysis of the deposited data

How the results depend on the processing

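No paired analysis was possible because the table holds 1 column per genotype and compartment; for the same reason no replicate could be left out. Each count was recomputed with 8 alternatives: deposited values, quantile normalization, division by column totals, digit factors divided out, pseudocounts of 0.1 and 10, no minimum, and a minimum of 5. In no alternative was any of the genes at least 2-fold higher in null within the nucleus or the cytoplasm, and Oog3 was at least 2-fold lower in both compartments in all 8. The count lower in the null nucleus, 6 of 8, was 1 as deposited and ran from 5 to 8 in the other alternatives. With no minimum Obox6 was counted too, and with a minimum of 5 Obox3 was not. In the cytoplasm the count of 5 was 3 with quantile normalization and 3 with column totals. For WT nucleus against WT cytoplasm, the 1 gene higher (Obox3) became 0 as deposited, with digit factors divided out and with a pseudocount of 10. With a minimum of 5 the count was 0 because Obox3 did not pass, while its difference was 1.25. The 0 lower became 8 as deposited and 2 with digit factors divided out, and Obox3 turned to -1.76 as deposited. For null nucleus against null cytoplasm, the 0 lower became 7 as deposited, 1 with quantile normalization, 2 with column totals and 8 with digit factors divided out. For the change of nuclear share, 0 higher became 7 as deposited, and 0 lower became 1 with quantile normalization, 2 with column totals, 5 with digit factors divided out and 1 with a pseudocount of 0.1. Statements on nuclear share therefore hold relative to the median gene only. The digit factors were read from the printed values (0.5 for both null columns, 0.125 for the WT nucleus, 1 for the WT cytoplasm), and no source states them. Read as means of 2 values, the cytoplasm columns do not fix a factor. The WT cytoplasm fitted at 99.95% with 1 and 99.94% with 0.5, and the null cytoplasm at 100% with either. Read as single values, the null cytoplasm fitted at 100% with 0.5 and 64.5% with 1. Counts with digit factors divided out rest in part on this choice. The median of all genes lay at 0.91 in the nucleus and -0.79 in the cytoplasm as deposited, and at -0.77 and 0.15 with these factors divided out. Obox3 and Obox6 lie too low for their differences to be read without a depth.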
